A study of Mus musculus with 16 samples.

Results

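Pyruvate is handled in several ways besides its oxidation by the pyruvate dehydrogenase complex (PDC). The genes described here encode proteins that transport pyruvate or convert it to or from other metabolites. The 10 members were listed by function, with earlier results of these data known. They are the mitochondrial pyruvate carrier subunits Mpc1 and Mpc2, the carboxylase Pcx, the malic enzymes Me1 and Me2, the lactate dehydrogenase subunits Ldha and Ldhb, the monocarboxylate transporters Slc16a1 and Slc16a3, and the alanine transaminase Gpt2. All 10 were found among the 55401 genes of the tables, and all 10 passed the filter on low counts over the 16 libraries, which left 15277 genes for testing. Me1 passed through the effector libraries, where it is higher, and did not pass in the 8 memory libraries alone.

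RNA was measured in cultured OT-I CD8+ T cells, whose transgenic receptor recognizes an ovalbumin peptide. Cells were activated with the peptide and then kept in IL-2, which gives effector cells (TE), or in IL-15, which gives memory cells (TM). The TPdh−/− cells came from crosses of Pdha1-floxed and CD4-cre mice. In them cre, driven by the Cd4 promoter and hence active in T cells from their CD4-expressing stage in the thymus, disrupts Pdha1, the gene of the E1 alpha subunit of PDC. The other cells were wild type (WT). There were 4 groups of 4 libraries. Libraries 1 to 4 were WT TE and 5 to 8 TPdh−/− TE, while the memory cultures were libraries 9 to 12 for WT and 13 to 16 for TPdh−/−. The study used young adult mice of both sexes. Which alleles the WT mice carried, whether OT-I was bred onto both genotypes in the same way, and which animal each library came from were not given in the sources used here. The study described its samples as discrete and gave more mice per condition for memory RNA than there are libraries in a group, which the labels do not explain. The p values measure the spread between these libraries, which may be technical.

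Pyruvate is the end product of glycolysis. The carrier proteins MPC1 and MPC2 together bring it across the inner mitochondrial membrane, where PDC can turn it into acetyl-CoA or pyruvate carboxylase into oxaloacetate. In the cytosol, lactate dehydrogenase interconverts pyruvate and lactate, and monocarboxylate transporters move both across the plasma membrane. Alanine transaminases exchange pyruvate with alanine, and malic enzymes make pyruvate from malate while reducing NADP or NAD. Activated effector T cells are known for making much of their pyruvate into lactate even with oxygen present.

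Library totals ran from 53007257 to 73507566 counts, and 19379 to 20739 genes had a count. Levels below are TMM-normalised counts on a CPM scale, or TPM, which is scaled for transcript length and library total, where genes are compared with each other. Libraries of a group differed by more than counting error (chi-square per degree of freedom 8.11 to 70.3), most in pairs with WT TM library 12 (53.7 to 70.3) or TPdh−/− TE library 5 (23.4 to 61.3). Pdha1 RNA was still present in TPdh−/− cells. In TM it lay at 169 to 194 CPM in WT and 141 to 160 CPM in TPdh−/− (log2 −0.22, SE 0.0511, adjusted p = 0.00556), and in TE at 160.1 to 162.0 and 147 to 156 CPM. The Pdha1 difference in TE was −0.08 on the log2 scale (adjusted p = 0.285). These checks at the level of the whole gene do not show whether the floxed exon was lost. For splenic T cells of TPdh−/− mice the study described qPCR on genomic DNA and stated that Pdha mRNA was not detected. By immunoblot it found no PDHA protein in either sex. The Pdha1 RNA levels above, in cultured cells, differ from that statement on mRNA, and the reason was not tested.

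CD8+ T cell markers were present in every group, with the 7 listed genes summing to between 3407 and 5612 TPM. Genes listed as markers of other cells moved with genotype. For TM, the study reported granzyme and killer-like receptor genes among those raised most in TPdh−/− and read them as an effector phenotype. Which cells held the marker RNA was not tested. Summed NK cell markers ranged from 2.38 to 3.71 TPM in WT TM and from 30.95 to 47.72 TPM in TPdh−/− TM, with 6 of 6 genes higher, and from 2.88 to 4.35 TPM in WT TE against 4.44 to 8.56 TPM in TPdh−/− TE, with 5 of 6 higher. Gamma-delta T cell markers ranged from 54.79 to 63.05 TPM in WT TM and from 144.5 to 193.3 TPM in TPdh−/− TM, and from 83.39 to 95.08 TPM against 167.1 to 265.0 TPM in TE, with 5 of 5 genes higher in both. Macrophage and monocyte markers ranged from 2.46 to 3.70 against 18.91 to 31.89 TPM in TM and from 0.92 to 2.50 against 3.14 to 8.04 TPM in TE, with 4 and 3 of the 5 genes tested higher. CD4 T cell markers were higher for 2 of 2 genes in TM and 1 of 2 in TE, and plasma cell markers for 1 of 3 and 2 of 3. The B cell and mast cell lists each had 1 gene higher in TM and 0 in TE. The 1 dendritic cell gene tested was higher in TM and lower in TE, and the 1 neutrophil gene tested was not called. CD8+ markers were lower in TPdh−/−, 4 of 7 in TM and 6 of 7 in TE. Of all genes, 11.0% were called higher and 7.27% lower in TM, and 17.3% and 14.3% in TE. Some markers were close to 0 outside the groups where they are higher. For example, 1 NK cell gene lay at 0.62 to 0.99 TPM in TPdh−/− TM and at most 0.1 TPM in any other group. A gamma-delta gene stayed at or below 0.05 TPM in WT. Such genes could have passed the filter only through the groups where they are higher, so these marker counts are no independent support. These marker values stand beside every genotype difference below, and their part in those differences was not tested. In bulk RNA, fewer cells of a type and less RNA per cell cannot be told apart.

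Promoter sequences of 6 members are shown because these are the genes whose levels moved most between groups or, for the Ldha and Ldhb pair, moved differently. They come from RefSeq on GRCm38.p6, run 5′ to 3′ on the strand of the gene, and cover 250 bases before to 50 after the annotated start. Of the 10 members, 9 had such a window, with none used here for Me2. Capitals mark matches, on either strand, to ACGTG or GCGTG (both forms of the core bound by hypoxia-inducible factors), CACGTG (the E-box, which contains ACGTG on both strands), TGACNNNGC (the core of the antioxidant element) and TGATGNAA (an amino acid response element). Of 32851 such windows, 19.6% held ACGTG, 32.4% GCGTG, 7.15% CACGTG, 12.4% TGACNNNGC and 3.97% TGATGNAA.
Ldha, chr7:46845554-46845853, plus strand: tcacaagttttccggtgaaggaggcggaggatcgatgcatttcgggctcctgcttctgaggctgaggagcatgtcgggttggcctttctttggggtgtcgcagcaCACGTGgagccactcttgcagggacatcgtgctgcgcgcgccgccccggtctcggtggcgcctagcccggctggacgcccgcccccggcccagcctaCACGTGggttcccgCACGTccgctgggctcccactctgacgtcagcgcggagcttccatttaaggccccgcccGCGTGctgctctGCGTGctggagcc
Ldhb, chr6:142507908-142508207, minus strand: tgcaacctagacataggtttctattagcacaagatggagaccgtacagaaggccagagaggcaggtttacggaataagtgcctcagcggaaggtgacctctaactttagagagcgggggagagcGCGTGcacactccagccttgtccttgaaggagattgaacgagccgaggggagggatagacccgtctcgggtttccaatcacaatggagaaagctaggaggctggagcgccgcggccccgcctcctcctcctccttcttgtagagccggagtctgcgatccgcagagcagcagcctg
Slc16a3, chr11:120948817-120949116, plus strand: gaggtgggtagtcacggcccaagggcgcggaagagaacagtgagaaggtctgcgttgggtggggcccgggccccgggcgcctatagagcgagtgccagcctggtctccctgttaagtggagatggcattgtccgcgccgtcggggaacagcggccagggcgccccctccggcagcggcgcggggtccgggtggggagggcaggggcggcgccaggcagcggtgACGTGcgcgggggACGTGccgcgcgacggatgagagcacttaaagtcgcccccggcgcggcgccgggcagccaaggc
Pcx, chr19:4510222-4510521, plus strand: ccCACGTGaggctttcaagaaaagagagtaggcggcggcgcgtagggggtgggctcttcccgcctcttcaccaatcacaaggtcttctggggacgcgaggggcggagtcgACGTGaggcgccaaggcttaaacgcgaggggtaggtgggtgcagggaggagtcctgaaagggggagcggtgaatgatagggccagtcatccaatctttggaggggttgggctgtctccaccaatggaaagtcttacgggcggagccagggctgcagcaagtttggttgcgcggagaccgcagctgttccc
Me1, chr9:86695865-86696164, minus strand: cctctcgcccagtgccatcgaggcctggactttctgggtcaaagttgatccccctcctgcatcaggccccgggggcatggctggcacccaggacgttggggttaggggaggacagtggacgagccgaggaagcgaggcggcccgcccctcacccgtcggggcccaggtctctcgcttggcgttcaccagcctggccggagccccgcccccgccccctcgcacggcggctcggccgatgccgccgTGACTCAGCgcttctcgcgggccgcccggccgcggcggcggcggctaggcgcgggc
Gpt2, chr8:85492326-85492625, plus strand: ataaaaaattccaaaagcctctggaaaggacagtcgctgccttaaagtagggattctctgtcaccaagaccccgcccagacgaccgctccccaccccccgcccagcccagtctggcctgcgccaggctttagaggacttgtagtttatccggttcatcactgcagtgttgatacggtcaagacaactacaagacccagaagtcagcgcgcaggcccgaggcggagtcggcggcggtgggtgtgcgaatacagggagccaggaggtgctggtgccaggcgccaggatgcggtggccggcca

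The Ldha window shown held 5 matches to ACGTG, 4 of them the strands of its 2 E-boxes, and 2 to GCGTG. Slc16a3 held 2 matches to ACGTG, 14 and 27 bases before the start. Ldhb held none to ACGTG and 1 to GCGTG. The Pcx window shown held 3 matches to ACGTG, of which 2 formed an E-box, and that of Me1 a single TGACNNNGC 6 bases before the start. Ldha, Pcx and Me1 each had a second window, at another annotated start, that is not shown. That of Ldha held no ACGTG and 2 matches to GCGTG, and that of Pcx no match to any motif. The second window of Me1 held no TGACNNNGC and 1 match to ACGTG. None of the 5 motifs was found in the Gpt2 window, and TGATGNAA in no window of a member. Of the 9 members with a window, 5 held ACGTG in any window, 5 GCGTG, 3 CACGTG and 3 TGACNNNGC. Members that moved little held matches too. The Slc16a1 window, not shown, held 3 to ACGTG, 2 to GCGTG, 1 to CACGTG and 1 to TGACNNNGC. Mpc1 and Mpc2 each had 1 match to GCGTG, and Mpc1 had 1 to TGACNNNGC. These matches describe letters in the windows and are not binding sites.

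In both genotypes 9 of the 10 were lower in TM than in TE, the exception being Mpc2. The 9 include Me1, which passed the filter only through the TE libraries. Its fall therefore adds no separate support to the culture counts and medians given here. In WT the 9 genes fell and Mpc2 rose, where 68.6% of all genes tested were called (34.3% lower), and the members' median log2 difference was −1.34 against 0.01 over all genes. In TPdh−/− cells the same 9 fell and none rose, where 67.7% of genes were called (33.0% higher, 34.7% lower), and the median was −1.41 against 0.00. The genotype comparison called 8 members in TE, with 6 higher and 2 lower, where 31.6% of genes were called (17.3% higher, 14.3% lower), and 3 members in TM, with 2 higher and 1 lower, where 18.3% were called (11.0% higher, 7.27% lower). Ldhb rose and Me2 fell in both cultures. Me1 rose in TE, and its call in TM comes from 34 against 4 counts of a gene that passed the filter only with the TE libraries. The count in TE was 5 without library 2 or without library 3, and 6 without libraries 5 and 12. The libraries of both groups were fully apart for 7 members by genotype in TE (33.1% of all genes), 3 in TM (20.8%), 9 by culture in WT (63.9%) and 10 in TPdh−/− (59.8%). A called gene has a Benjamini-Hochberg adjusted p under 0.05 in edgeR's quasi-likelihood test, and contrasts that share a group of libraries are not independent of each other.

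**Figure D1:**
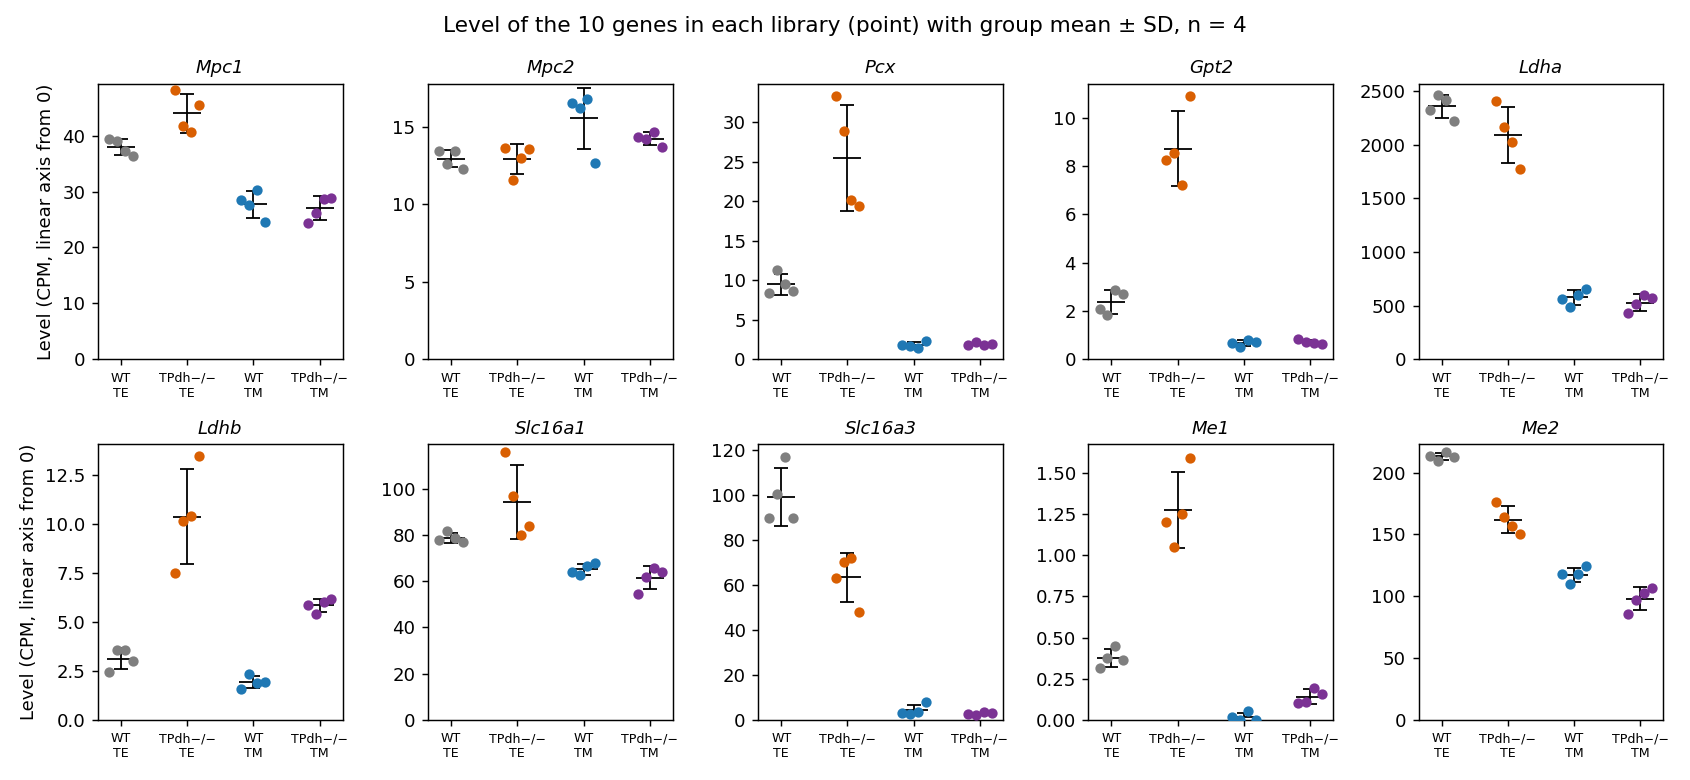
Level of each of the 10 genes (y axis, CPM, linear from 0) in each of the 16 libraries (points) by group (x axis), with the mean and SD of 4 libraries as a bar with whiskers. Pcx and Gpt2 stand highest in TPdh−/− TE, at 19.5 to 33.3 CPM and 7.21 to 10.9 CPM, and both are below 2.3 CPM in every TM library.

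The levels of the members spanned several orders of magnitude. By mean TPM, Ldha led in every group, at 1937 in WT TE, 1897 in TPdh−/− TE, 546.4 in WT TM and 485.9 in TPdh−/− TM. In WT TE it was followed by Me2 (96.12 TPM), Mpc1 (62.04), Slc16a3 (58.58), Mpc2 (30.97), Slc16a1 (20.01), Ldhb (3.45), Pcx (2.65), Gpt2 (0.745) and Me1 (0.198). Libraries of neighbours in that order were apart except for Mpc1 with Slc16a3 and Ldhb with Pcx. In TM, Slc16a3 took a place below Slc16a1, at 3.31 TPM in WT and 1.61 TPM in TPdh−/−. Ldhb stood above Slc16a3 in TPdh−/− TM alone, at 7.12 TPM.

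Both carrier subunits differed by less than 1 on the log2 scale between any group means. Mpc1 (chromosome 17, 8282904 to 8297661, GRCm38) measured 39.4, 39.0, 37.3 and 36.4 CPM in WT TE libraries 1 to 4, 48.2, 41.7, 40.7 and 45.6 CPM in TPdh−/− TE libraries 5 to 8, 24.5 to 30.2 CPM in WT TM and 24.4 to 28.9 CPM in TPdh−/− TM. The 4 TPdh−/− TE libraries thus lay above the 4 WT TE libraries, and the TM groups overlapped. The TE difference was 1.16-fold (log2 0.21, SE 0.0723, adjusted p = 0.0346), a call that was lost in 8 of 15 alternatives, among them the removal of any 1 WT TE library, of library 5 or of library 8 (adjusted p up to 0.107). In TM the difference was −0.04 (adjusted p = 0.790). From TE to TM, Mpc1 fell by 0.46 on the log2 scale in WT (SE 0.0730, adjusted p = 2.75e-05) and by 0.70 in TPdh−/− (SE 0.0730, adjusted p = 2.07e-07). Mpc1 shares 480 of its 2082 exon bases with 4930506C21Rik, and its pseudogene Mpc1-ps held 53 to 143 counts a library, so part of its reads could have been divided.

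Mpc2 (chromosome 1, 165460637 to 165481214) lay at 12.3 to 13.4 CPM in WT TE and 11.5 to 13.6 CPM in TPdh−/− TE. It measured 16.5, 16.2, 16.8 and 12.6 CPM in WT TM libraries 9 to 12 and 13.7 to 14.7 CPM in TPdh−/− TM, so that WT TM library 12 lay below the whole TPdh−/− TM group. Mpc2 was higher in TM than in TE in WT (log2 0.26, SE 0.0827, adjusted p = 0.00940), but this call was lost on the log2(TPM + 1) scale, where the difference was 0.02 (adjusted p = 0.848), still above 0 but 0.10 below the median of all genes on that scale. The same contrast in TPdh−/− gave 0.14 (adjusted p = 0.143) and the genotype contrast 0.00 in TE (adjusted p = 0.972) and −0.13 in TM (adjusted p = 0.317). Without WT TM library 12 the TM genotype difference was −0.21 (adjusted p = 0.0322) and Mpc2 was called lower, and without libraries 5 and 12 it was called higher in TM than TE in TPdh−/− as well (0.17, adjusted p = 0.0267).

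The ratio of Mpc1 to Mpc2 in TPM describes the balance of the carrier's transcripts. It was 2.01 ± 0.103 (SD, n = 4) in WT TE, 2.37 ± 0.0944 in TPdh−/− TE, 1.68 ± 0.250 in WT TM and 1.59 ± 0.0587 in TPdh−/− TM. The TE groups did not overlap, and neither did TE and TM of TPdh−/−, at the smallest p that an exact 2-sided permutation test of 4 against 4 can give (0.0286, adjusted over 16 ratio tests to 0.0352). WT TM and WT TE overlapped (adjusted p = 0.0979), as did both TM groups (adjusted p = 0.686). Transcript lengths that entered the TPM differed between cultures for Mpc2, at 742 ± 15.8 bases in TPdh−/− TE and 824 ± 26.7 in TPdh−/− TM. In WT they were 735 ± 6.39 bases in TE and 883 ± 62.5 in TM. None of 40 length comparisons of members passed an exact permutation test after adjustment (7 had an unadjusted p of 0.0286, lowest adjusted p 0.163). A p of 0.0286 can pass adjustment over 40 tests only if many tests reach it, so this does not show equal lengths.

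Pyruvate carboxylase, encoded by Pcx (chromosome 19, 4510472 to 4621752), makes oxaloacetate from pyruvate and so refills the TCA cycle. Pcx measured 8.34, 11.3, 9.54 and 8.68 CPM in WT TE libraries 1 to 4 and 33.3, 28.9, 20.2 and 19.5 CPM in TPdh−/− TE libraries 5 to 8. It was 1.81, 1.59, 1.42 and 2.29 CPM in WT TM libraries 9 to 12 and 1.84, 2.10, 1.74 and 1.95 CPM in TPdh−/− TM libraries 13 to 16. Every TPdh−/− TE library exceeded every WT TE library, and the TM groups overlapped at a low level.

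In TE, Pcx was 2.69-fold higher in TPdh−/− (log2 1.43, SE 0.160, adjusted p = 3.91e-06), while in TM the difference was 0.10 (SE 0.196, adjusted p = 0.786). The difference between these genotype effects was itself past the threshold (TM minus TE, log2 −1.33, SE 0.252, adjusted p = 0.00163), where 15.6% of all genes were called. From TE to TM, Pcx fell by 2.41 on the log2 scale in WT (adjusted p = 3.68e-09) and fell by 3.74 in TPdh−/− (adjusted p = 2.74e-11). Over the 16 libraries the genes whose centred log2 CPM was nearest to that of Pcx were Fdps, a farnesyl diphosphate synthase (root mean square difference 0.382), Prnp, the prion protein gene (0.389), and Slc1a4, a neutral amino acid transporter (0.423).

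Malic enzymes differ by compartment, with ME1 in the cytosol and ME2 in mitochondria. Me1 (chromosome 9, 86581371 to 86695953) was the least abundant member. Its counts were 20, 23, 28 and 21 in WT TE libraries 1 to 4 (0.312 to 0.447 CPM) and 70, 78, 89.5 and 89 in TPdh−/− TE libraries 5 to 8 (1.05 to 1.59 CPM). In WT TM libraries 9 to 12 they were 1, 0, 3 and 0, and in TPdh−/− TM libraries 13 to 16 they were 6, 6, 13 and 9 (0.103 to 0.196 CPM). TPdh−/− libraries lay above WT libraries in both cultures.

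In TE, Me1 was 3.39-fold higher in TPdh−/− (log2 1.76, SE 0.274, adjusted p = 1.12e-04). The ratio of summed counts, scaled for library size, was 3.36 with a 95% interval of 2.66 to 4.28. This interval and those below cover counting error only and leave out the spread between libraries. In TM the summed counts were 34 against 4, a ratio of 8.48 with a 95% interval of 3.03 to 32.9 (exact binomial, counting error only), and Me1 was called higher (adjusted p = 0.00131). Me1 did not pass the filter in the 8 TM libraries alone, so this call was made only with the TE libraries in the fit. The fitted log2 value in TM of 2.93 became 4.25 without WT TM library 11, which held 3 of the 4 WT counts, and on the log2(TPM + 1) scale the call was lost (0.11, adjusted p = 0.200), where the added 1 exceeds every TM level of Me1 and so keeps any difference small. From TE to TM the count ratio was 22.1 in WT (95% interval 8.35 to 82.9) and 8.76 in TPdh−/− (6.14 to 12.9), counting error only. Both falls were called (adjusted p = 4.93e-07 and 1.15e-07), in contrasts that include the TE libraries through which Me1 passed the filter. The fitted log2 fall in WT of −4.31 became −5.63 without WT TM library 11. The genotype effects of Me1 in TE and TM did not differ past the threshold (log2 1.17, SE 0.639, adjusted p = 0.236), except without library 11 (2.50, adjusted p = 0.0405). Closest in pattern were Rnase4, a ribonuclease (0.405), the unnamed 2510009E07Rik (0.451) and Pkhd1l1, a fibrocystin-like gene (0.479).

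Me2 (chromosome 18, 73769903 to 73815449) was far more abundant and moved the other way with genotype, though not between cultures. It measured 214, 210, 216 and 213 CPM in WT TE libraries 1 to 4 and 176, 164, 157 and 150 CPM in TPdh−/− TE libraries 5 to 8. In TM it measured 118, 110, 118 and 124 CPM in WT libraries 9 to 12 and 85.3, 96.7, 103 and 107 CPM in TPdh−/− libraries 13 to 16. WT libraries were the higher ones in both cultures, with no overlap. Me2 fell with genotype by 0.40 on the log2 scale in TE (SE 0.0641, adjusted p = 1.63e-04) and by 0.26 in TM (SE 0.0645, adjusted p = 0.00870), and it fell from TE to TM by 0.86 in WT (adjusted p = 3.51e-09) and by 0.73 in TPdh−/− (adjusted p = 3.28e-08).

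Me1 remained a small fraction of Me2 throughout. The ratio of Me1 to Me2 in TPM was 0.00205 ± 0.000847 (SD, n = 4) in WT TE, 0.00637 ± 0.00134 in TPdh−/− TE, 0.000173 ± 0.000200 in WT TM and 0.00186 ± 0.00127 in TPdh−/− TM. It was higher in TPdh−/− in both cultures and higher in TE in both genotypes, each with no overlap of libraries (exact permutation test, adjusted p = 0.0352). Me1 passed the filter only through the TE libraries, so the higher ratio in TE adds no separate support. In WT TM the ratio rests on Me1 counts of 1, 0, 3 and 0. Genes nearest to Me2 in pattern were Kif20a (0.0808) and Ncaph (0.0827), which encode a mitotic kinesin and a condensin subunit, and the tubulin gene Tubb4b (0.0887).

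Lactate dehydrogenase is a tetramer of subunits A and B. The A subunit predominates in skeletal muscle and other glycolytic cells and the B subunit in heart. Ldha (chromosome 7, 46841475 to 46855627) was the most abundant member, at 2329, 2471, 2422 and 2225 CPM in WT TE libraries 1 to 4 and 2407, 2171, 2027 and 1776 CPM in TPdh−/− TE libraries 5 to 8. In TM it measured 559, 489, 599 and 655 CPM in WT libraries 9 to 12 and 427, 512, 599.7 and 572 CPM in TPdh−/− libraries 13 to 16. The genotypes overlapped in both cultures, and every TM library lay far below every TE library.

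Ldha fell from TE to TM by 2.04 on the log2 scale in WT (SE 0.111, adjusted p = 7.69e-11) and by 1.99 in TPdh−/− (SE 0.111, adjusted p = 1.18e-10). The genotype difference was −0.17 in TE (SE 0.107, adjusted p = 0.240) and −0.12 in TM (SE 0.107, adjusted p = 0.463). Its nearest genes over the 16 libraries were Gapdh (0.0818), Eno1 (0.0839) and Pkm (0.106), which encode the glycolytic enzymes glyceraldehyde-3-phosphate dehydrogenase, enolase and pyruvate kinase. Reads from the processed copies Ldha-ps and Ldha-ps2 were few, at no more than 1 and 8 counts a library.

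Ldhb (chromosome 6, 142490249 to 142507957) rose in TPdh−/− cells of both cultures. It measured 2.42, 3.57, 3.55 and 2.997 CPM in WT TE libraries 1 to 4 and 7.51, 10.2, 10.4 and 13.5 CPM in TPdh−/− TE libraries 5 to 8. In TM it measured 1.59, 2.33, 1.90 and 1.92 CPM in WT libraries 9 to 12 and 5.85, 5.40, 6.04 and 6.18 CPM in TPdh−/− libraries 13 to 16. The lowest TPdh−/− library lay above the highest WT library in each culture, and TM lay below TE in each genotype.

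Relative to WT, Ldhb was 3.32-fold higher in TPdh−/− TE (log2 1.73, SE 0.160, adjusted p = 5.23e-07) and 3.04-fold higher in TPdh−/− TM (log2 1.60, SE 0.167, adjusted p = 3.18e-06), and these effects did not differ past the threshold (log2 −0.13, SE 0.230, adjusted p = 0.766). From TE to TM it fell by 0.70 in WT (adjusted p = 0.00147) and by 0.82 in TPdh−/− (adjusted p = 1.44e-04). As a share of Ldha plus Ldhb TPM, Ldhb made up 0.177% ± 0.0270 (SD, n = 4) in WT TE, 0.677% ± 0.244 in TPdh−/− TE, 0.440% ± 0.123 in WT TM and 1.46% ± 0.208 in TPdh−/− TM. The share was higher in TPdh−/− in each culture and higher in TM in each genotype, all with no overlap (exact permutation test, adjusted p = 0.0352), and it remained under 1.8% in every library. Nearest in pattern were Abca1, a cholesterol exporter (0.276), Dst, the cytoskeletal linker dystonin (0.277), and the kinase gene Yes1 (0.346).

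**Figure D2:**
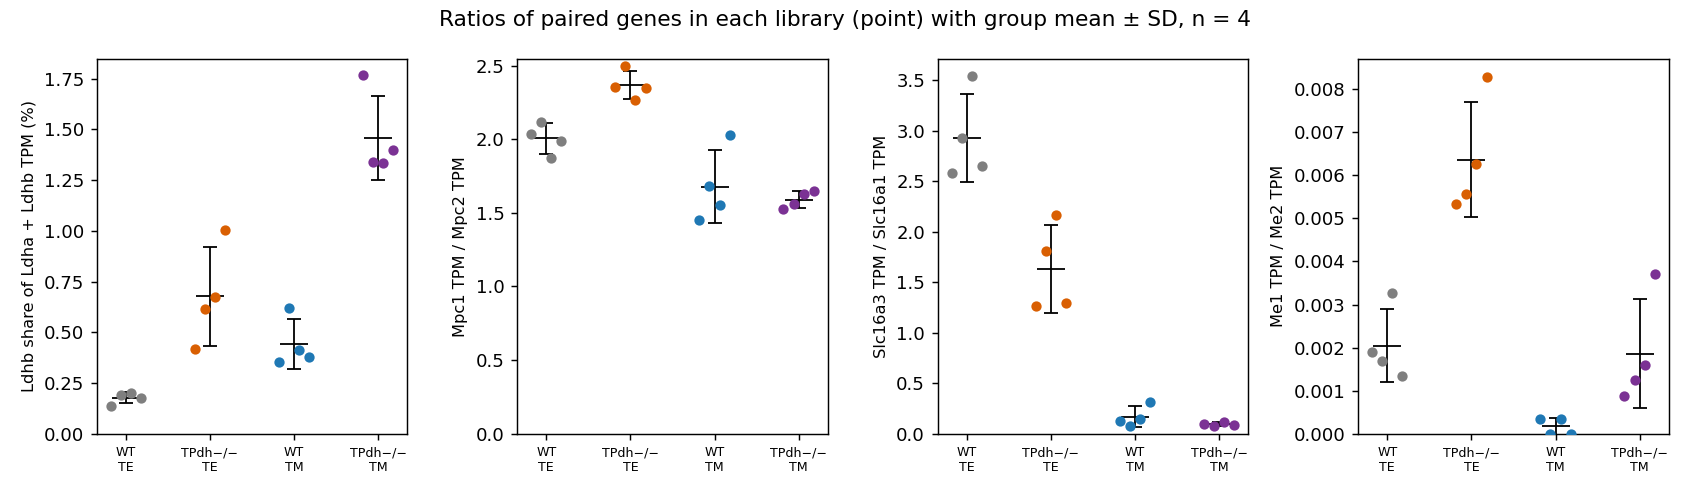
Ratio of 2 genes in each library (points) by group (x axis), as the Ldhb share of Ldha plus Ldhb in percent, Mpc1 over Mpc2, Slc16a3 over Slc16a1 and Me1 over Me2 (y axes, from TPM, linear from 0), with mean and SD of 4 libraries. The Ldhb share is highest in TPdh−/− TM, at 1.33 to 1.77%, and lowest in WT TE, at 0.139 to 0.199%.

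Monocarboxylate transporters carry lactate and pyruvate with a proton. MCT4, encoded by Slc16a3 (chromosome 11, 120948480 to 120960868), is the transporter of cells that export much lactate. Slc16a3 measured 89.6, 100.1, 117 and 89.6 CPM in WT TE libraries 1 to 4 and 63.0, 69.9, 72.0 and 48.1 CPM in TPdh−/− TE libraries 5 to 8. In TM it measured 3.21, 2.52, 3.68 and 7.84 CPM in WT libraries 9 to 12 and 2.41, 2.28, 3.35 and 2.89 CPM in TPdh−/− libraries 13 to 16. The TE genotypes were apart, the TM genotypes overlapped, and TM and TE libraries were separated by a wide gap.

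Slc16a3 had the largest fitted difference between cultures among the members, a fall of 4.52 on the log2 scale in WT (22.9-fold, SE 0.255, adjusted p = 1.14e-10) and of 4.53 in TPdh−/− (SE 0.262, adjusted p = 1.82e-10), although for Me1 without library 11 the fall in WT was larger. With genotype it fell by 0.64 in TE (SE 0.211, adjusted p = 0.0273), a call lost with DESeq2 (adjusted p = 0.0646), on the TPM scale (0.201) and without library 2 (0.0520), 3 (0.0790) or 8 (0.0775). In TM the difference was −0.66 (SE 0.273, adjusted p = 0.109) and rested largely on WT TM library 12, the highest of its group, without which it was −0.20 (adjusted p = 0.558). Without WT TM library 10 it passed (−0.84, adjusted p = 0.0335). Nearest in pattern were Bnip3 (0.337), a mitophagy receptor, Aldoc (0.358), an aldolase, and Endou (0.366), an endoribonuclease.

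MCT1, encoded by Slc16a1 (chromosome 3, 104638668 to 104658462), is more widely expressed and works in both directions. It measured 76.8 to 81.7 CPM in WT TE and 116, 96.8, 80.1 and 84.0 CPM in TPdh−/− TE libraries 5 to 8, so that the groups overlapped, with library 5 the highest. WT TM ranged from 62.7 to 67.7 CPM and TPdh−/− TM from 54.3 to 65.6 CPM. Slc16a1 was called higher in TPdh−/− TE (log2 0.26, SE 0.0889, adjusted p = 0.0350), but without library 5 the difference was 0.14 (adjusted p = 0.133), and the call was lost in 9 of 15 alternatives, including the removal of library 6 or any 1 WT TE library. In TM the difference was −0.09 (adjusted p = 0.562). From TE to TM it fell by 0.27 in WT (adjusted p = 0.0120) and by 0.62 in TPdh−/− (adjusted p = 1.00e-05), and the fall in WT was −0.09 on the TPM scale (adjusted p = 0.420), 0.20 below the median of all genes there.

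The ratio of Slc16a3 to Slc16a1 in TPM was 2.92 ± 0.437 (SD, n = 4) in WT TE and 1.63 ± 0.434 in TPdh−/− TE, so MCT4 transcripts exceeded MCT1 transcripts in all 8 TE libraries. In TM the ratio was 0.168 ± 0.104 in WT and 0.0932 ± 0.0193 in TPdh−/−, with MCT1 the more abundant in all 8 TM libraries. Exact permutation tests separated the TE genotypes and both pairs of cultures (adjusted p = 0.0352) and not the TM genotypes (adjusted p = 0.153).

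Mitochondrial alanine transaminase, encoded by Gpt2 (chromosome 8, 85492576 to 85527560), converts pyruvate and glutamate to alanine and alpha-ketoglutarate and back. Gpt2 measured 2.08, 1.82, 2.86 and 2.702 CPM in WT TE libraries 1 to 4 and 8.25, 8.54, 7.21 and 10.9 CPM in TPdh−/− TE libraries 5 to 8. In TM it measured 0.659, 0.500, 0.804 and 0.701 CPM in WT libraries 9 to 12 and 0.825, 0.711, 0.649 and 0.603 CPM in TPdh−/− libraries 13 to 16. The lowest TPdh−/− TE library stood above every other group, and the TM genotypes overlapped.

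In TE, Gpt2 was 3.69-fold higher in TPdh−/− than in WT (log2 1.88, SE 0.163, adjusted p = 2.50e-07), and in TM the difference was 0.06 (SE 0.204, adjusted p = 0.870). The genotype effects differed between cultures (TM minus TE, log2 −1.82, SE 0.260, adjusted p = 1.50e-04). Gpt2 fell from TE to TM by 1.82 in WT (adjusted p = 1.48e-07) and by 3.64 in TPdh−/− (adjusted p = 4.08e-11). Nearest to Gpt2 in pattern were Reep1, which encodes an endoplasmic reticulum shaping protein (0.351), Slc1a4 (0.393) and Asns, asparagine synthetase (0.425).

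**Figure D3:**
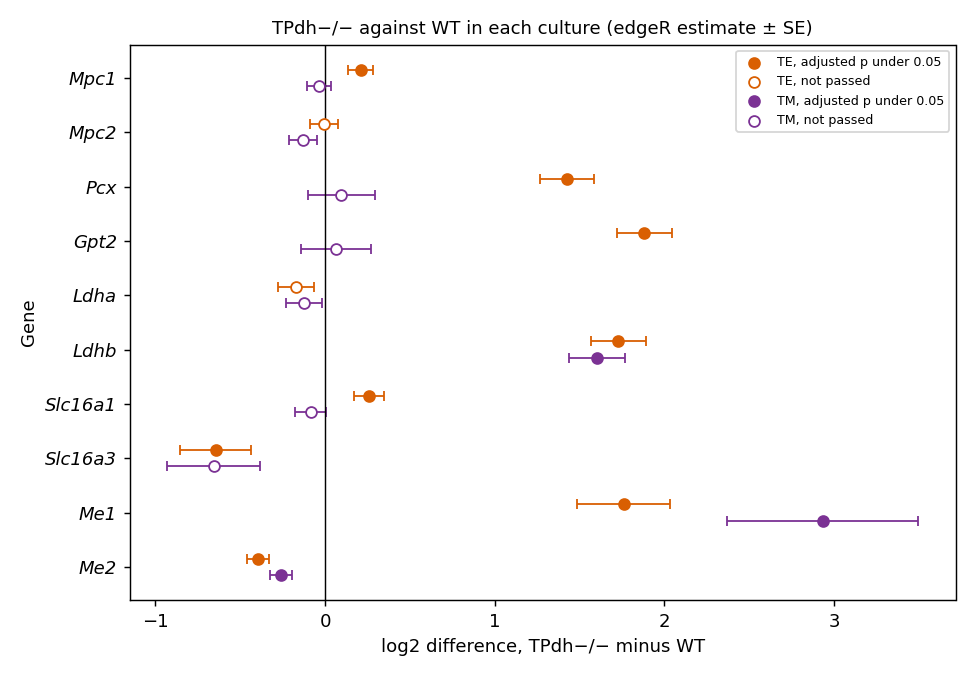
Difference between TPdh−/− and WT (x axis, log2, edgeR estimate with SE as whiskers) for each gene (y axis) in TE and in TM, with filled points for an adjusted p under 0.05. Pcx and Gpt2 differ in TE (1.43 and 1.88) and lie at 0.10 and 0.06 in TM, while Ldhb is at 1.73 and 1.60.

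**Figure D4:**
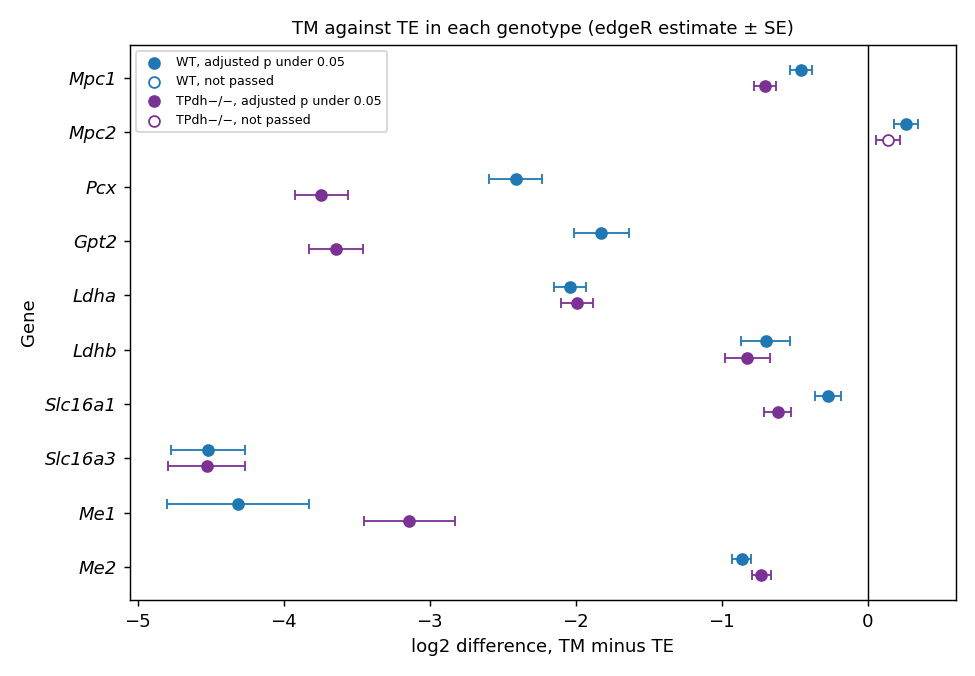
Difference between TM and TE (x axis, log2, edgeR estimate with SE as whiskers) for each gene (y axis) in WT and in TPdh−/−, with filled points for an adjusted p under 0.05. Slc16a3 lies at −4.52 and −4.53, and Mpc2 is the gene to the right of 0, at 0.26 and 0.14.

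The test of the difference between genotype effects called 2 of the 10 members, Pcx and Gpt2, both lower and none higher, where 8.05% of all genes were called higher and 7.51% lower. Both kept the call under all 22 alternatives. For Slc16a1 that difference was −0.34 (adjusted p = 0.0749) and for Mpc1 −0.25 (adjusted p = 0.118), and both passed on the TPM scale (−0.49 and −0.40, adjusted p = 0.0172 and 0.00176). Slc16a1 also passed without library 7 (−0.40, adjusted p = 0.0239) or 8 (−0.38, adjusted p = 0.0489), and Mpc1 came to the threshold without library 12 (−0.29, adjusted p = 0.05). The genotype contrasts share no library, but the contrast between cultures shares its groups with both.

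Of 22 further genes of pyruvate, lactate, malate and transaminase metabolism, 11 passed the filter, and the others reached at most 0.300 CPM in a library, 4 of them with no count at all. For genotype, 17.3% of all genes were called higher in TE and 11.0% in TM. Pck2, mitochondrial phosphoenolpyruvate carboxykinase, was the 1 gene of the 11 called higher in TPdh−/− in both cultures. It measured 16.8, 18.6, 22.2 and 18.3 CPM in WT TE, 22.4, 30.7, 31.8 and 37.4 CPM in TPdh−/− TE, 5.02 to 6.32 CPM in WT TM and 8.51 to 9.23 CPM in TPdh−/− TM, with no overlap between genotypes. The difference was 0.69 on the log2 scale in TE (SE 0.119, adjusted p = 3.05e-04) and 0.67 in TM (SE 0.129, adjusted p = 0.00142), and the TM call was lost on the log2(TPM + 1) scale (0.42, adjusted p = 0.0910).

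Bsg encodes basigin, the chaperone that takes MCT1 and MCT4 to the plasma membrane. It fell in TPdh−/− TE by 0.39 (SE 0.0742, adjusted p = 7.15e-04), from 203 ± 12.3 to 155 ± 17.0 CPM (SD, n = 4), and was 76.6 ± 2.59 against 71.2 ± 5.97 CPM in TM (adjusted p = 0.368). Between cultures 9 of the 11 genes were called lower in TM in each genotype, where 34.3% of all genes were called lower in WT and 34.7% in TPdh−/−. In WT 1 of the 11 was called higher in TM, and in TPdh−/− 0 were. That gene was near the floor, at a mean of 0.174 CPM in WT TM and 0.0658 CPM in WT TE, with overlapping libraries. It had under 10 counts in every TE library and could have passed the filter only through the TM libraries, where it is higher. Pkm, the pyruvate kinase of T cells, fell by 2.18 in WT and 2.15 in TPdh−/− (adjusted p = 7.69e-11 and 1.11e-10), Pck2 by 1.76 and 1.78, and Bsg by 1.41 and 1.12. Both aspartate transaminases fell in both genotypes, Got1 by 0.47 in WT and by 0.68 in TPdh−/− (adjusted p = 1.25e-06 and 1.87e-08) and Got2 by 0.67 and 0.49 (adjusted p = 8.01e-09 and 3.46e-07). The genotype effects on these 11 genes did not differ past the threshold between cultures, with 0 called by edgeR's test and 6 at an unadjusted p under 0.05. Of all genes, 15.6% were called in that test. DESeq2 called 2 of them, limma on log2(TPM + 1) called 3, and without TPdh−/− TE library 7 edgeR called 4.

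**Figure D5:**
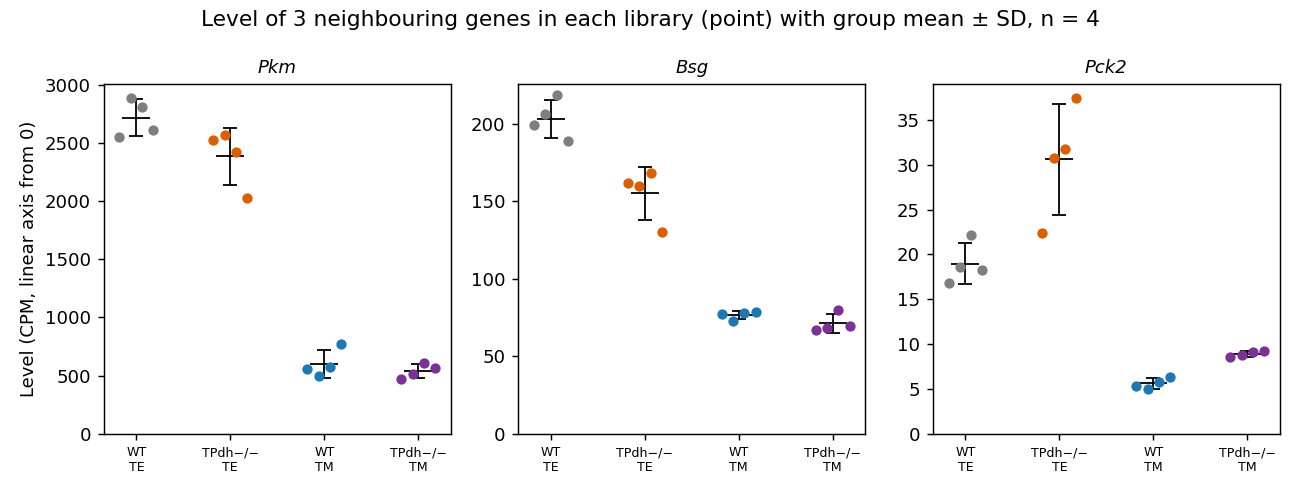
Level of Pkm, Bsg and Pck2 (y axis, CPM, linear from 0) in each library (points) by group (x axis), with mean and SD of 4 libraries. Pck2 is higher in TPdh−/− than in WT in each culture, and all 3 genes are lower in TM, Pkm at 467 to 771 CPM against 2027 to 2887 CPM in TE.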

How the data were processed

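Poly(A) RNA libraries were made with a TruSeq version 2 kit, which does not keep the strand, and sequenced on a NovaSeq. Per the submitters' processing notes, reads were processed with STAR 2.7.6a, RSEM 1.3.3 and DESeq2 on mm10 (GRCm38). The annotation release was not given in the sources used here. The authors deposited per gene and library the expected counts of RSEM, which need not be whole, with TPM and FPKM values that the authors computed from them. FPKM was not used. Symbols and positions came from GENCODE M21, which matched 55141 of 55401 identifiers.

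Expected counts were rounded, filtered with filterByExpr (minimum count 10, minimum total 15) and TMM-scaled. One quasi-likelihood model of 4 group means over 16 libraries was fitted in edgeR 4.0.16 (R 4.3.3). Genotype contrasts are TPdh−/− minus WT, culture contrasts TM minus TE, and the interaction their difference, with the genotype effect of TE subtracted from that of TM. The SE is the log2 difference over the square root of F. The code was tested on simulated data. Ratios and transcript lengths, the latter averaged by RSEM over isoforms, were compared by exact 2-sided permutation tests. Alternatives used DESeq2 1.42.0, its size factors, limma 3.58.1 on log2 CPM (prior count 2) and on log2(TPM + 1), no filter, the 8 libraries compared alone, the data without libraries 5 and 12, and each library left out. Motifs and intervals were computed in Python 3.11.15 with scipy 1.17.1.

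Members and lists were chosen with earlier results of these data known. The text names the 10 members, Pdha1, up to 4 called genes of the list of 22 per contrast by adjusted p and, for each member whose group means span more than 1 on the log2 scale, the 3 genes of at least 1 CPM with the nearest centred log2 CPM. With 4 libraries a group, small differences may be missed.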

Additional observations from a re-analysis of the deposited data

Results flagged for a closer look

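The genotype effect on Pcx differed between cultures (TM minus TE, log2 −1.33, adjusted p = 0.00163 in edgeR), with all 4 TPdh−/− TE libraries above all 4 WT TE libraries and overlapping groups in TM. For Gpt2 the difference between cultures was −1.82 (adjusted p = 1.50e-04), with the same arrangement of libraries. Mpc2 in WT TM library 12, at 12.63 CPM, lay far below the other 3 libraries of its group, with a gap of 0.871 of the group's range, above Dixon's 95% limit for 4 values. It was the 1 such value among 40 groups of 4 libraries examined, and chance gives about 1 in 20.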

How the results depend on the processing

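Of 32 calls of members over the 5 contrasts, 26 were kept under every alternative run, and the 6 others were lost under at least 1. No called difference changed sign under any alternative, although on the log2(TPM + 1) scale that of Mpc2 between cultures in WT (0.02) lay below the median of all genes. On the log2(TPM + 1) scale, 1637 genes were called for genotype in TM against 2796, and 4 members rather than 2 for the interaction. That scale moved the median of all genes to 0.12 for TM against TE in WT, 0.09 for genotype in TE and −0.12 for the interaction. Of the genes called there, those higher were 6436 of 9804, 84.0% and 18.6%, against 5243 of 10479, 54.8% and 51.7% in the count test. The number of members called for genotype in TE was 5 to 8 when each library was left out in turn, with 5 reached without WT TE library 2 or 3, and 6 without libraries 5 and 12. The Mpc1 to Mpc2 ratio of expected counts was lower in TM than in TE in WT (difference −1.148, exact permutation test, adjusted p = 0.0327), while the TPM ratio did not pass. The cause of these shifts was not tested. No paired analysis was possible because no replicate number is shared between groups. Differences in Me1 in TM rest on 34 against 4 counts, so its fold is poorly bounded.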
